A study of Homo sapiens with 2 samples.

Results

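Expression of genes of homologous recombination, of the Fanconi anaemia pathway and of the DNA damage checkpoint was examined in HARA-B4, the highly bone-metastatic subline, and in HARA, the parental human squamous cell lung cancer line from which it derives. The set was defined by gene name, as 41 listed genes, and every probe set whose single gene symbol in the platform annotation was one of them was taken. It found 36 genes with 77 probe sets, out of 19775 genes and 54675 probe sets on the array. The other 5 listed genes, BRCA2, FANCA, FANCD2, RBBP8 and ATRIP, had no probe set by this rule of a single symbol and are not analysed here. Both lines were grown in culture in the same serum-containing medium, the labels name no treatment, and total RNA of each was hybridised to 1 Affymetrix array. The samples are cultured cells, not bone lesions, and each line has 1 sample. Biological spread could not be estimated, and no p-value is given. The comparison asks which transcripts differ between the bone-seeking subline and its parent.

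Homologous recombination repairs double-strand breaks by copying the sister chromatid. Broken ends are resected to single strands, BRCA1 and BRCA2 with their partners prepare those strands for pairing with the sister, the XRCC2 and XRCC3 complexes assist, and helicases and nucleases take the joined molecules apart. The Fanconi pathway detects crosslinks between the strands and hands them to recombination, while the kinases ATM and ATR sense the damage and halt the cell cycle through CHEK2 and CHEK1. Many of these genes are also tumour suppressors, and many are transcribed most in dividing cells.

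Values are probe set signals on a linear scale, and differences are log2 signal in HARA-B4 minus log2 signal in HARA. A gene was taken as above background when its signal passed 27.1. That level is the 95th percentile, on the 2 arrays together, of 165 probe sets for olfactory, vomeronasal and taste receptors, which lung cells were taken not to transcribe. Where a gene had several probe sets, the one with the highest average log2 signal stood for it. Signals had a median of 16.2 in HARA-B4 and 17.3 in HARA, with 40.8% of probe sets past background in HARA-B4 and 42.0% in HARA. The ratio of 3′ to 5′ probe sets of ACTB, a measure of RNA integrity, was 1.31 in HARA-B4 and 1.39 in HARA. All 5 squamous markers with a probe set of a single symbol (DSG3, KRT14, KRT5, PKP1 and SOX2) passed background in both lines, out of 8 listed. In both lines 0 of 5 fibroblast, 2 of 5 blood and 1 of 4 endothelial markers passed it. Of 5 alveolar and adenocarcinoma markers, 3 passed it in HARA-B4 and 4 in HARA. The summed signal of that list was 204 in HARA-B4 and 221 in HARA, and that of the squamous list 15162 in HARA-B4 and 12155 in HARA.

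As a set, these repair genes hardly differed between the lines. Of the 36 genes, 34 were above background on both arrays and 2, RAD52 and FANCB, on neither. The median log2 difference of the 34 was 0.04, against 0.02 over all 10207 genes above background on both arrays. The members' quartiles were -0.29 and 0.24, against -0.27 and 0.28 for all genes. There were 18 members with a positive difference and 16 with a negative one. The 5 members that passed 1.5-fold were all lower in HARA-B4: XRCC2, FANCM, XRCC3, BRIP1 and NBN. They were 14.7% of the 34. Of all genes above background on at least 1 array, 11.0% were lower and 10.2% higher by that fold.

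At 2-fold, 0 of 34 members were higher in HARA-B4 and 1 was lower, XRCC2. Over all 11496 genes above background on at least 1 array, 3.62% were higher and 4.20% lower by that measure, 7.82% in all. At 1.5-fold, 0 members were higher and 5 lower (14.7%), against 10.2% of all genes higher, 11.0% lower and 21.3% in all. The share of lower members was near that of all genes. The members just inside the 1.5-fold limit were NBN at -0.74 and BRIP1 at -0.74, and the one just outside it was RAD54L at -0.57.

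**Figure D1:**
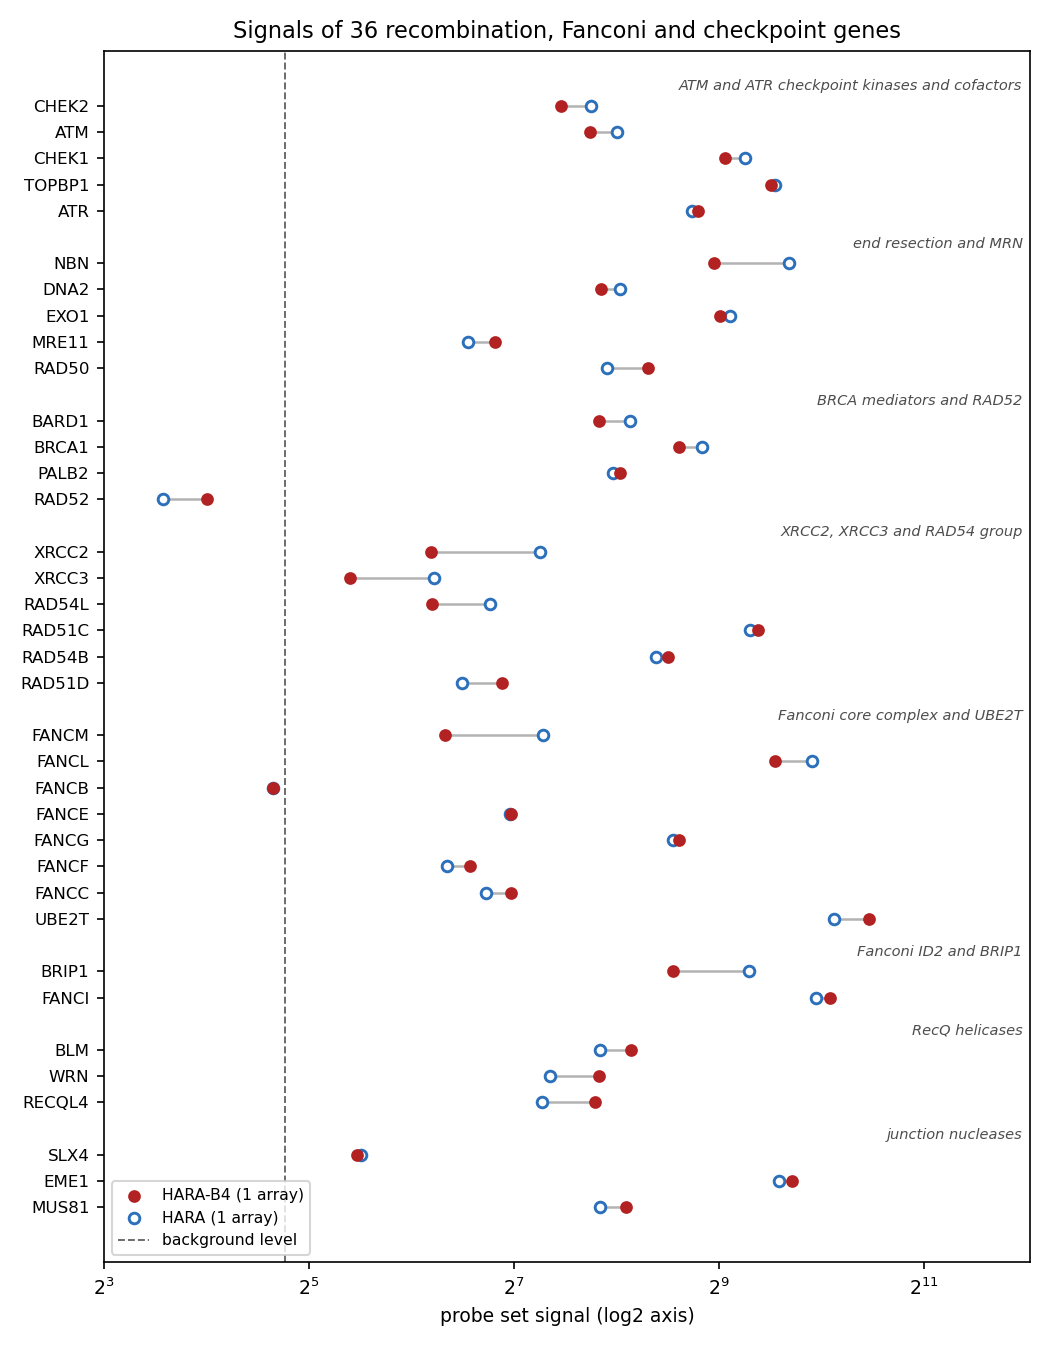
Signals of the 36 genes with a probe set of a single gene symbol, grouped by role, on a log2 axis. Filled points are HARA-B4 and open points HARA, 1 array each, and the dashed line is the background signal of 27.1. The widest gaps belong to XRCC2, FANCM, XRCC3, BRIP1 and NBN, each lower in HARA-B4.

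**Figure D2:**
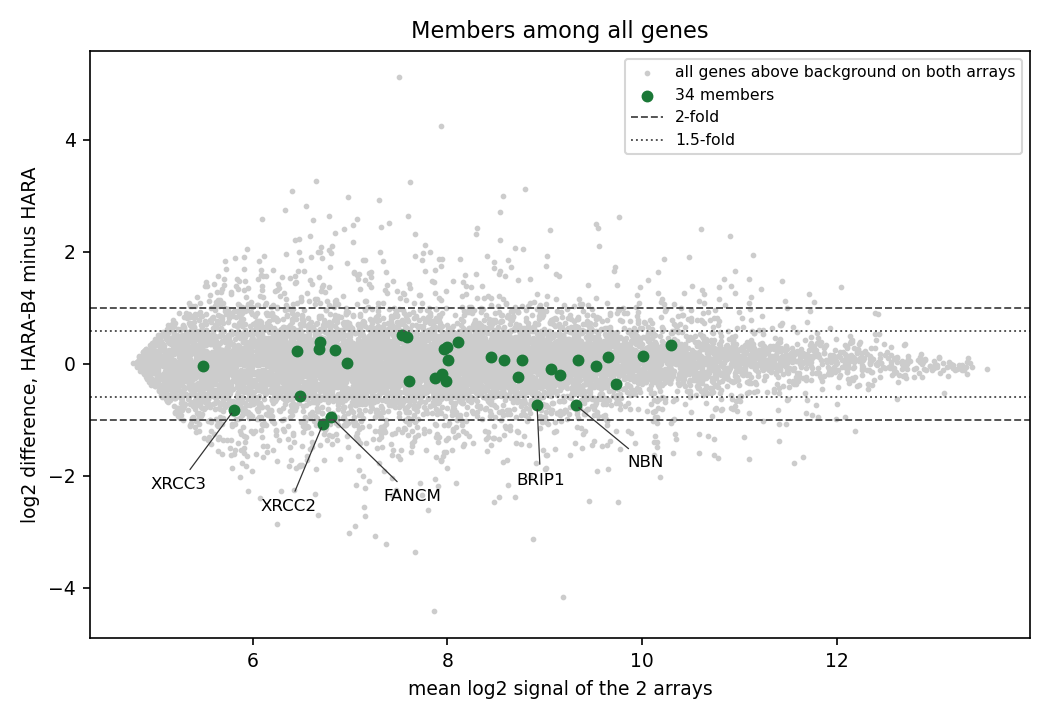
Log2 difference (HARA-B4 minus HARA) against mean log2 signal for all 10207 genes above background on both arrays (grey) and the 34 members (green). Dashed lines mark 2-fold and dotted lines 1.5-fold. Of the members, 1 lies past the lower 2-fold line, 5 past the lower 1.5-fold line and 0 past an upper line.

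Genes read by more than 1 probe set give the only repeat measurement here, a technical one. The SD of the log2 difference between probe sets of a gene was 0.30 over 4830 such genes, and 0.29 over the members. Of the 34 members, 19 differed by less than 0.30 in size (55.9%, against 53.2% of all genes) and 15 by that much or more. Among the 15 members with several usable probe sets, all probe sets had 1 sign in 8 and both signs in 7. No such count is given for all genes, so the 7 cannot be called many or few.

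**Figure D3:**
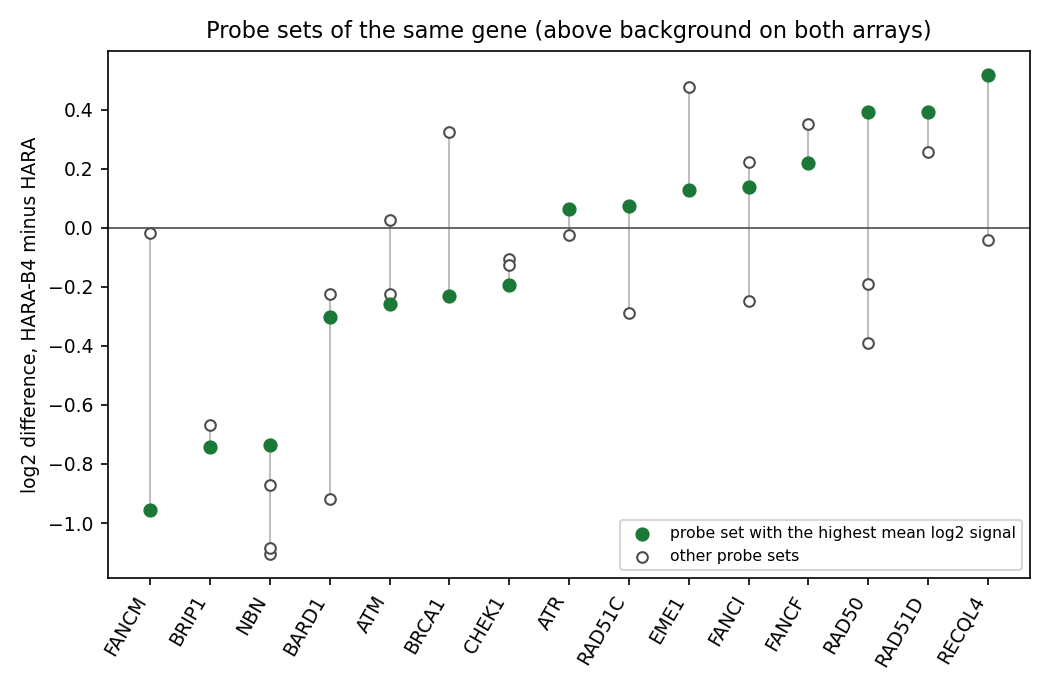
Log2 difference (HARA-B4 minus HARA) of each probe set above background on both arrays, for the 15 members with several such probe sets. Filled points are the probe set that stands for the gene and open points the others. All 4 probe sets of NBN and both of BRIP1 lie well below 0, while those of RAD50, RECQL4 and BRCA1 fall on both sides of it.

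The XRCC2 and XRCC3 group held the lowest member. XRCC2 had a signal of 73.0 in HARA-B4, against 153 in HARA, a log2 difference of -1.07 or 2.10-fold lower. It is read by a single probe set, of a type ending in _x_at whose probes can match other transcripts. XRCC2 works in a complex with RAD51B, RAD51C and RAD51D that acts on resected single-stranded DNA. RAD51D, its direct partner there, had 118 in HARA-B4, against 90.0 in HARA (0.39), and its second probe set differed by 0.26. RAD51C, which belongs to both the XRCC2 and the XRCC3 complex, had 667 in HARA-B4 and 634 in HARA (0.07), with a second probe set at 394 in HARA-B4 and 482 in HARA (-0.29). XRCC2 minus RAD51D was -1.46 on the log2 difference. The differences of single genes had an SD of 0.55 over all genes, but a contrast of 2 genes spreads more widely than that. XRCC2 also entered this contrast as the lowest member.

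XRCC3, which pairs with RAD51C, was also lower in HARA-B4. Its signal was 42.2 in HARA-B4, against 74.7 in HARA (-0.82, 1.77-fold lower). It has 1 probe set, and the HARA-B4 value lay close to the background of 27.1. RAD54L, a DNA motor protein of the strand invasion step, had 73.5 in HARA-B4 and 109 in HARA (-0.57), while its relative RAD54B had 363 and 335 in HARA-B4 and HARA (0.12). In this group, RAD54L and RAD54B included, 2 of 6 were lower by 1.5-fold and 0 higher, with a median of -0.25. Both lower genes are read by a single probe set. Of all genes above background on at least 1 array, 11.0% were lower and 10.2% higher by 1.5-fold.

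In the MRN complex, which binds broken ends and activates ATM, NBN stood apart from the other subunits on the leading probe sets. NBN, the subunit that contacts ATM, had a signal of 495 in HARA-B4, against 824 in HARA (-0.74, 1.67-fold lower). Its 3 other usable probe sets differed by -0.87 (154 in HARA-B4, 282 in HARA), -1.08 (88.9 in HARA-B4, 189 in HARA) and -1.10 (245 in HARA-B4, 526 in HARA), so the leading probe set gave the smallest size of the 4. Its remaining probe set, at 14.2 in HARA-B4 and 22.1 in HARA, was below background. RAD50, the ATPase that bridges DNA ends, had 316 in HARA-B4, against 241 in HARA (0.39), but its other probe sets stood at -0.19 and -0.39. MRE11, the nuclease, had 113 in HARA-B4 and 93.8 in HARA (0.27), with 1 of its 3 probe sets above background. On the log2 difference, NBN minus RAD50 was -1.13 and NBN minus MRE11 -1.002. As for XRCC2, a contrast of 2 genes spreads more widely than single genes, and NBN entered it as one of the lower members. The sign of RAD50 depended on the probe set.

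The nucleases of long-range resection differed little. EXO1 had 518 in HARA-B4 and 552 in HARA (-0.09), and DNA2 had 231 in HARA-B4 and 263 in HARA (-0.19). Both differences were smaller than the within-gene SD. Of the 5 resection genes measured, 1 was lower by 1.5-fold and 0 higher, with a median of -0.09. Among all genes above background on at least 1 array, 11.0% were lower and 10.2% higher by 1.5-fold.

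BRCA1 and its partner BARD1, which form a ubiquitin ligase that promotes resection, both had small negative differences. BRCA1 had 390.2 in HARA-B4 and 458 in HARA (-0.23), while its second probe set gave 116 and 92.5 in HARA-B4 and HARA (0.33), so its direction depended on the probe set. BARD1 had 228 in HARA-B4 and 282 in HARA (-0.30), with all 3 probe sets negative, the lowest at -0.92 (89.9 in HARA-B4, 169.9 in HARA). PALB2, which joins BRCA1 to BRCA2, had 263 in HARA-B4 and 251 in HARA (0.07). RAD52, which anneals single strands, was not above background on either array by any of its 4 probe sets. None of the 3 genes above background in this group passed 1.5-fold, against 21.3% of all genes, and 3 are too few to judge that share.

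BRIP1, a helicase that binds BRCA1 and is also known as FANCJ, was the lower of the 2 genes measured for the late Fanconi steps. Its signal was 375 in HARA-B4, against 628 in HARA (-0.74, 1.67-fold lower), and the second probe set gave 167 and 266 in HARA-B4 and HARA (-0.67). Both probe sets thus gave nearly the same size. FANCI, which with FANCD2 forms the clamp that the pathway ubiquitinates, had 1086 in HARA-B4 and 986 in HARA (0.14). Its other probe sets gave 655 in HARA-B4 and 561 in HARA (0.22), and 468 in HARA-B4 and 556 in HARA (-0.25).

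The Fanconi core complex carries out that ubiquitination. Of 7 genes above background in its group, UBE2T included, 1 was lower by 1.5-fold, FANCM, and 0 were higher. That is 14.3% lower, near the 11.0% of all genes that were lower, with 10.2% higher. FANCM, a DNA translocase that anchors the complex to chromatin, had 80.4 in HARA-B4, against 156 in HARA (-0.96, 1.94-fold lower). A second probe set was at 54.2 in HARA-B4 and 54.9 in HARA (-0.02), and another passed background in HARA only, at 17.5 in HARA-B4 and 57.6 in HARA. The last, at 4.53 in HARA-B4 and 13.3 in HARA, passed it on neither array. No probe set was higher in HARA-B4, but the size varied widely between them. FANCL, the ligase subunit, had 750.0 in HARA-B4 and 960.3 in HARA (-0.36), and UBE2T, the conjugating enzyme that works with it, 1411 in HARA-B4 and 1121 in HARA (0.33).

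The remaining core genes lay between 0.01 and 0.25 on the log2 difference. FANCE had 126 in HARA-B4 and 125 in HARA (0.01), and FANCG 392 in HARA-B4 and 375 in HARA (0.06). FANCF had 95.1 in HARA-B4 and 81.6 in HARA (0.22), with a second probe set at 0.35. FANCC had 126 in HARA-B4 and 106 in HARA (0.25). FANCB was just under background, at 25.05 in HARA-B4 and 25.03 in HARA. The median of the 7 genes above background was 0.06.

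The RecQ helicases had the highest median of the role groups, 0.48 over 3 genes, though none reached 1.5-fold. By that fold 21.3% of all genes differed, so 0 of 3 says little. BLM, which dissolves double Holliday junctions, had 284 in HARA-B4 and 230 in HARA (0.30). WRN, the Werner syndrome helicase, had 227 in HARA-B4 and 163 in HARA (0.48). RECQL4, which also acts in replication initiation, had 221 in HARA-B4 and 155 in HARA (0.52), but its second probe set gave 136 in HARA-B4 and 140.1 in HARA (-0.04). The direction for RECQL4 thus depended on the probe set.

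On their leading probe sets the junction nucleases differed by less than the within-gene SD. MUS81 had 273 in HARA-B4 and 229 in HARA (0.26), and its partner EME1 843 in HARA-B4 and 771 in HARA (0.13), with a second EME1 probe set at 169 in HARA-B4 and 122 in HARA (0.48). SLX4, the scaffold on which several nucleases gather, had 44.3 in HARA-B4 and 45.4 in HARA (-0.04). None of the 3 passed 1.5-fold, against 21.3% of all genes, which so few genes cannot be set against.

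On their leading probe sets the checkpoint kinases and their cofactors showed small differences, from -0.30 to 0.06. The median was -0.19 over 5 genes. Past 1.5-fold there were 0 of 5, against 21.3% of all genes, a share that 5 genes are too few to judge. ATM had 215 in HARA-B4 and 257 in HARA (-0.26), with other usable probe sets at -0.22 and 0.03. A further ATM probe set passed background in HARA only, at 16.5 in HARA-B4 and 31.5 in HARA, and the mean of all 6 probe sets, 2 of them below background on both arrays, differed by -0.88. ATR had 446 in HARA-B4 and 427 in HARA (0.06), with a second probe set at -0.02, and TOPBP1, its activator, 730.1 in HARA-B4 and 751 in HARA (-0.04). The effector kinase CHEK1 had 535 in HARA-B4 and 612 in HARA (-0.19), with all 3 usable probe sets between -0.19 and -0.11. CHEK2, the effector of ATM, had 176 in HARA-B4 and 216 in HARA (-0.30).

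The sequence upstream of the annotated start is shown for members that were lower by 1.5-fold in HARA-B4 and have an entry in the RefSeq promoter table (GRCh38.p14), and for RAD51D, the partner of XRCC2 whose difference had the opposite sign. NBN, which was also lower by 1.5-fold, is not shown. Each run is the 250 bases before the start, on the gene's strand, 5′ to 3′. Capitals mark matches, on either strand, to a CCAAT box, a GC box, an E2F-like sequence, an ETS core or the cell cycle element CHR, whose letters are given with the counts. CCAAT boxes and CHR elements are known from promoters of genes used in dividing cells. XRCC2 lies at chr7:152676142-152676391 on the minus strand, XRCC3 at chr14:103715452-103715701 on the minus strand, FANCM at chr14:45135680-45135929 on the plus strand and BRIP1 at chr17:61863529-61863778 on the minus strand. RAD51D has 2 starts in the table, and the first is used, at chr17:35119759-35120008 on the minus strand.
XRCC2: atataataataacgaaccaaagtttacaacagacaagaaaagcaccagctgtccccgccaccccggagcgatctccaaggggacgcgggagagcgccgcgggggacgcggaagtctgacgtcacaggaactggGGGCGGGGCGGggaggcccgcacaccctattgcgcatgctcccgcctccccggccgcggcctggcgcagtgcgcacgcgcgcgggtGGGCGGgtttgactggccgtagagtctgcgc
XRCC3: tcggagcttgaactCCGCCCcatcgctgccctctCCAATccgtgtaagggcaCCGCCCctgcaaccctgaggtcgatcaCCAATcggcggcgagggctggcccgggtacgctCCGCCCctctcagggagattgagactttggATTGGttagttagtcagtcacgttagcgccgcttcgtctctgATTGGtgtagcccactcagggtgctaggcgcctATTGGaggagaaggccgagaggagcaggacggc
FANCM: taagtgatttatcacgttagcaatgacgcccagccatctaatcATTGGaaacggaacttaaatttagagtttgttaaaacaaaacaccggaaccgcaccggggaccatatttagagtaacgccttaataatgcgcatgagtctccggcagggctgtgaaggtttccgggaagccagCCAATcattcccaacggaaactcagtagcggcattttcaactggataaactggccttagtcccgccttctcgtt
BRIP1: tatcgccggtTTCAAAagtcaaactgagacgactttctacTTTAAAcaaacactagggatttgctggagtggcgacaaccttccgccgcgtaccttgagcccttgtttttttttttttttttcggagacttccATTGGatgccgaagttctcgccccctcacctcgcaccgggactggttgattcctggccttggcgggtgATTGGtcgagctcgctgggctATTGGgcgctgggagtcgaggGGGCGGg
RAD51D: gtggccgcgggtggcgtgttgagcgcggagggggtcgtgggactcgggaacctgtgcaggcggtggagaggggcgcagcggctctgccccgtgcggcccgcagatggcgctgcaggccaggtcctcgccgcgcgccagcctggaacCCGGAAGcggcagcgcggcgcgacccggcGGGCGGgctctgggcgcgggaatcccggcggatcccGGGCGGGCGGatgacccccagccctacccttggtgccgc

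These upstream sequences had no motif in common. For the CCAAT box, searched as CCAAT, matches were at 5 positions in XRCC3, 3 in BRIP1, 2 in FANCM and 0 in XRCC2 and RAD51D. The GC box, searched as GGGCGG, was at 3 positions each in XRCC2, XRCC3 and RAD51D, at 1 in BRIP1 and at 0 in FANCM. Some of these overlap each other in XRCC2 and RAD51D. BRIP1 alone of the 5 held the CHR, 1 match each to TTTGAA and to TTTAAA, which reads the same on both strands. RAD51D alone held the ETS core, searched as CCGGAAG. The E2F-like letters, TTTNNCGC, were in none of the 5. Of 35 listed genes with an entry, counted at their first start, 42.9% held a CCAAT match, 68.6% a GC box, 8.57% an E2F-like match, 31.4% an ETS core, 11.4% the first CHR form and 5.71% the other. Over all 35116 entries the shares were 32.0%, 42.6%, 5.92%, 8.52%, 13.3% and 11.3% in that order of motifs, and over 15843 protein-coding genes 34.5%, 56.0%, 7.65%, 11.8%, 10.8% and 9.23%. These are matches of letters in a window and are no measure of binding.

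The 5 lower members differed in what their chromosome neighbours did. For each gene, the median log2 difference of 24 neighbours, 12 on either side among genes above background on both arrays in RefSeq order, was taken. For FANCM, on chromosome 14, this median was -1.02 and 23 of 24 neighbours were lower in HARA-B4. For XRCC2, on chromosome 7, it was -0.63 and 20 of 24 were lower. The 5th percentile of this median over 10181 genes was -0.42. These 2, of 34 members, were the only ones at or below it, where 5% of all genes lie by definition. FANCM minus its neighbours' median was 0.07, and XRCC2 minus its own was -0.44.

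Within the window of FANCM, POLE2, which encodes a subunit of DNA polymerase epsilon, differed by -1.88, and the adjacent FKBP3 by -0.87. Beside XRCC2 stood PAXIP1 (-0.76), which encodes a BRCT-domain protein of the damage response, at 394 in HARA-B4 and 667 in HARA, and the chromatin methyltransferase gene KMT2C (-0.44). The genes named here as neighbours were chosen after their values were seen. Among genes whose neighbours' median was at or below the 5th percentile, 49.0% were lower by 1.5-fold, against 8.15% of the other genes.

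NBN, XRCC3 and BRIP1 were lower with no such surroundings over the whole window. The neighbours' median was 0.12 for NBN on chromosome 8, at percentile 72.6 of all genes, with 10 of 24 lower. It was -0.11 for XRCC3 on chromosome 14 (percentile 23.4, 15 of 24 lower) and -0.15 for BRIP1 on chromosome 17 (percentile 20.1, 14 of 24 lower). The gene minus that median was -0.86 for NBN, -0.72 for XRCC3 and -0.59 for BRIP1. The nearest genes of BRIP1 differed from the rest of its window: all 4, with 2 on either side, were lower, from -1.16 for INTS2 to -0.62 for MED13. The 4 nearest genes of NBN were lower as well, but OSGIN2 was at -0.65 and the other 3 between -0.08 and -0.05.

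For most members the neighbours' median was nearer 0, and 31 of 34 lay between the 5th and 95th percentiles. By definition 5% of all genes lie at or below the 5th percentile and 5% at or above the 95th. The members' 31 of 34 was thus near the share of all genes. FANCC, on chromosome 9, was the 1 member at or above the 95th (0.33), with a neighbours' median of 0.45 and its own difference of 0.25. Across the 34 members the Pearson r between a gene's difference and its neighbours' median was 0.61, and without FANCM and XRCC2 it was 0.33 over 32, so much of it rested on those 2. Over all genes r was 0.40. Neighbouring windows overlap and all values come from the same 2 arrays, so these are descriptions. The part of chromosome position in the members' differences was not tested.

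**Figure D4:**
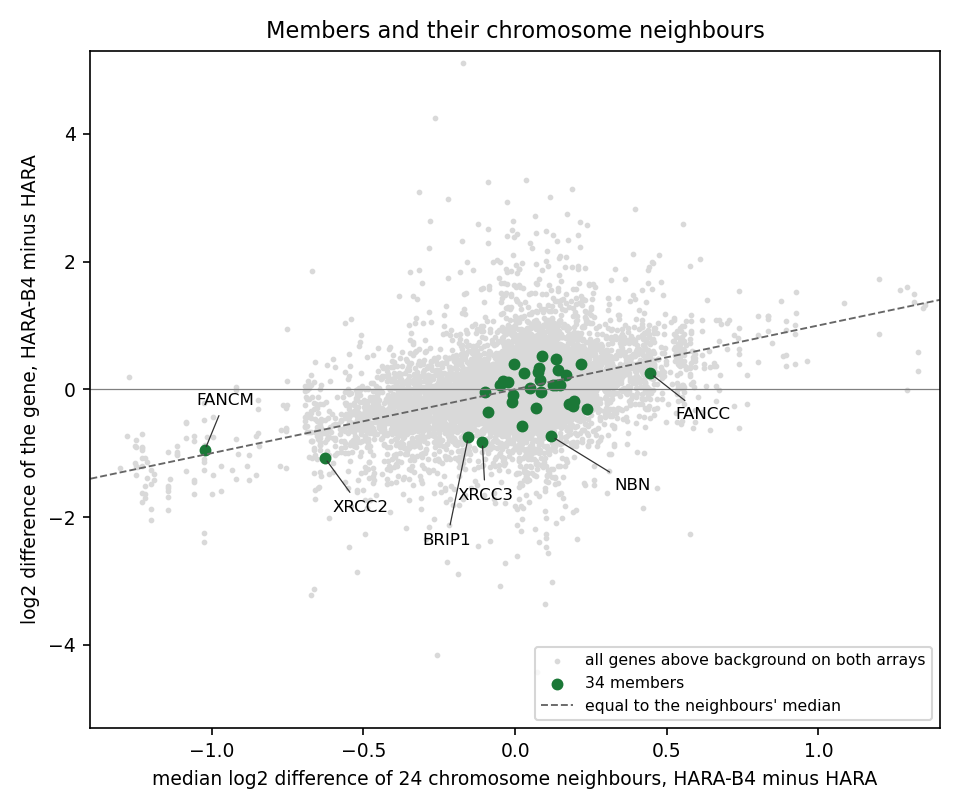
Log2 difference of a gene against the median log2 difference of its 24 chromosome neighbours (both HARA-B4 minus HARA), for all genes (grey) and 34 members (green). FANCM lies at a neighbours' median of -1.02 and XRCC2 at -0.63, while NBN, XRCC3 and BRIP1 lie at 0.12, -0.11 and -0.15 with differences of -0.74, -0.82 and -0.74.

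**Figure D5:**
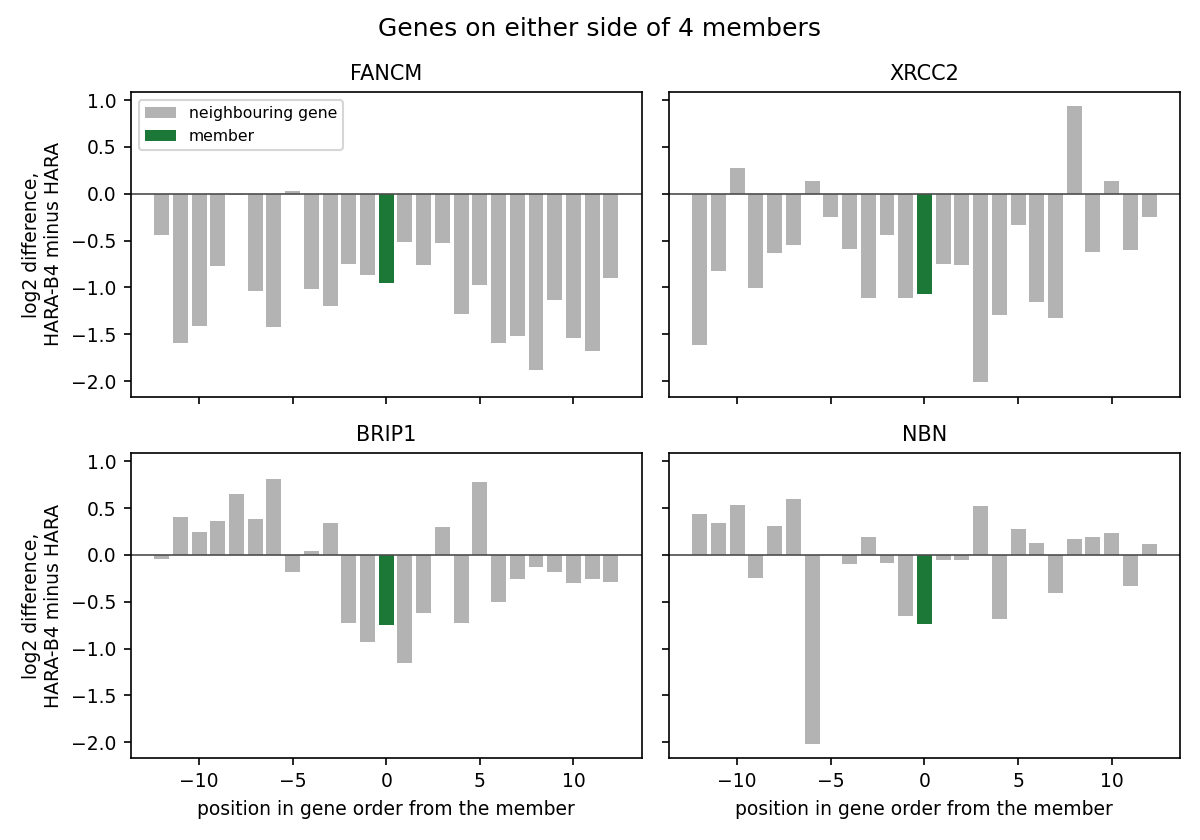
Log2 difference (HARA-B4 minus HARA) of FANCM, XRCC2, BRIP1 and NBN (green) and of the 12 genes on either side in gene order (grey). Bars are below 0 for 23 of 24 neighbours of FANCM and 20 of 24 of XRCC2, against 14 of 24 of BRIP1 and 10 of 24 of NBN.

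Most other genes of DNA repair and the checkpoint also differed little. Of 111 such genes above background on at least 1 array, 0 were higher and 3 lower by 2-fold (2.70%, against 7.82% of all genes), and their median was 0.03. The 3 were XRCC4, RIF1 and XPC. When a gene was given the mean of its probe sets in place of the leading one, 1 was higher and 2 lower by 2-fold. At 1.5-fold 5 were higher (4.50%) and 11 lower (9.91%), against 10.2% and 11.0% of all genes.

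Among 25 other recombination genes, 0 passed 2-fold, 3 were higher and 4 lower by 1.5-fold, and the median was 0.09. XAB2, a splicing and repair factor, had 32.2 in HARA-B4 and 61.4 in HARA (-0.93), the first of these close to background. HELQ, a DNA repair helicase, had 123 in HARA-B4 and 67.3 in HARA (0.87), with other probe sets down to 0.16. Chosen after their values were seen, SFR1 and SWI5, which form a complex with each other, were at 0.81 and 0.72, and the meiotic recombination gene MND1, the BLM partner RMI2 and the helicase MCM8 at -0.74, -0.59 and -0.65. For SWI5 the neighbours' median was 0.38 and for MCM8 -0.47.

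Of 15 other Fanconi and crosslink repair genes above background, 0 passed 1.5-fold, with a median of 0.02. The median was -0.06 with quantile normalization, and 1 gene was lower by 2-fold with the mean of all probe sets and with the probe set of the highest HARA signal. FAAP100, a core complex protein, had 102 in HARA-B4 and 68.1 in HARA (0.58), and MAD2L2, which joins translesion synthesis to end protection, 641 in HARA-B4 and 433 in HARA (0.57). Of 26 other checkpoint genes, 1 was lower by 2-fold, 3 by 1.5-fold and 0 higher, with a median of 0.08. RIF1, which protects broken ends from resection, had 180 in HARA-B4, against 373 in HARA (-1.05), and its 5 usable probe sets ran from -1.05 to -0.16. With the mean of all probe sets 0 checkpoint genes of this list passed 2-fold.

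End joining, the pathway that competes with recombination, held the largest difference of all these lists. XRCC4, the partner of DNA ligase IV, had 225 in HARA-B4, against 565 in HARA (-1.33), with 1 of 4 usable probe sets at 0.07. LIG4, the ligase itself, chosen after its value was seen, had 113 in HARA-B4 and 184 in HARA (-0.71). Of 7 end joining genes above background, 1 was lower by 2-fold and the median was 0.05. When probe sets were averaged, those below background included, 0 were lower and 1 higher by 2-fold. The median was then -0.23 over the 6 genes above background on both arrays. Without probe sets ending in _x_at, _s_at or _a_at, 0 passed 2-fold. The neighbours' median was -0.08 for XRCC4 and 0.01 for LIG4.

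Few genes of the remaining repair pathways and of the proliferation markers passed 2-fold. In mismatch repair, 0 of 4 genes passed 1.5-fold (median -0.30), with MLH3 at -0.46 and PMS1 at -0.43. That direction depended on the probe sets, with a median of 0.25 over the 2 genes left without probe sets ending in _x_at, _s_at or _a_at and -0.03 over 2 genes with the mean of all probe sets. In nucleotide excision repair 1 of 15 was lower by 2-fold (median -0.07), XPC, the damage sensor, at 80.3 in HARA-B4 and 172 in HARA (-1.10). In base excision repair 0 of 19 passed 2-fold (median -0.20), with the glycosylases NEIL2 at -0.80 and UNG at -0.55. Of 20 proliferation markers 0 passed 2-fold, 1 was lower by 1.5-fold and the median was 0.05. When their probe sets were averaged, 2 were lower by 2-fold. The thymidylate synthase gene TYMS was at -0.65, with a neighbours' median of -0.50, and BIRC5, which encodes survivin, at -0.43.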

How the data were processed

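Total RNA of HARA-B4 and HARA was measured on 1 Affymetrix array each. The authors deposited an intensity per probe set, on a linear scale, and name Affymetrix Expression Console, per the submitters' processing notes. Version, algorithm and scaling target were not stated there. Values were taken to log2 with no further scaling.

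Of the probe sets, 41097 had 1 symbol in the platform annotation, 1801 several and 11777 none. Only the first were named, 41043 of them by Entrez ID through RefSeq (GRCh38.p14). Probe set choice, background and neighbour windows are as described with the results. A gene above background on 1 array only had its other value set to background. With 1 array per line there was no test, and precision is limited by that number. The calling steps were tested on simulated data. Python 3.11.15, numpy 2.4.6, pandas 2.3.3, statsmodels 0.14.6 and matplotlib 3.10.9 were used.

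The members and lists were chosen with earlier results of these data known. Every member is named. Members at 1.5-fold, and the member of each role with the highest mean level, are given with their probe sets. Each other list gives up to 3 genes at 2-fold, or the 2 with the largest difference. Alternatives covered scaling, background, probe set choice, offset, fold and window.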

Additional observations from a re-analysis of the deposited data

How the results depend on the processing

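The count of members at 2-fold stayed at 1 under median subtraction, quantile normalization, a lowess trend, other backgrounds, the mean of all probe sets and the other choices of probe set, except that it was 0 without probe sets ending in _x_at, _s_at or _a_at, 0 on log2(signal + 16) and 0 at 3-fold. The count at 1.5-fold ran from 4 to 6, except that it was 1 without those probe sets, since XRCC2 and XRCC3 then had none and NBN and FANCM none above background on both arrays. The member median was 0.04, and -0.031 without those probe sets, -0.083 as a mean and -0.041 over all 56 usable probe sets. For the other repair and checkpoint lists, the count at 2-fold ran from 2 to 4 except that it was 1 on log2(signal + 16), and the median was -0.025 with quantile normalization, -0.0079 with a lowess trend and -0.037 with the mean of all probe sets. On log2(signal + 16) the call was lost for RIF1 and XPC. The mean of all probe sets moved the median of the other checkpoint genes to -0.0017. The count of members at or below the 5th percentile of neighbours' medians was 2 in windows of 15, 25 and 51 genes and with quantile normalization. The neighbours' median of XRCC2 was -0.76 in windows of 15 genes and -0.54 in windows of 51, that of BRIP1 -0.22 and -0.05, and that of FANCC 0.32 and 0.39. That of NBN was -0.05 in windows of 15 genes and near 0 in windows of 51. A background shift could not change the log2 difference of a member it kept. Nor could the mean or another choice of probe set for a member with 1 probe set, and subtracting the median shifted each member by 0.02. Of 290 recomputed member values, those that could not change included, 284 moved by no more than 0.30. The other 6 were, with the mean of all probe sets, ATM at -0.88, ATR at 0.41 and RAD50 at -0.06, and, without the probe sets named above, EME1 at 0.48, RAD50 at -0.39 and RECQL4 at -0.04. The mean for ATR takes in a probe set far below background, at 0.77 in HARA-B4 and 0.34 in HARA. No value is given for 16 more, where a gene had no probe set or was not above background. No paired analysis was possible because each line has 1 array. Signals near 27.1, as for XRCC3 and XAB2, limit the precision of their differences.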
